A study of Homo sapiens with 6 samples.

Results

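HIV reverse transcriptase (HIV RT), the polymerase that copies the genome of human immunodeficiency virus into DNA, was used to read ribosomal RNA that had been treated with CMC or mock-treated. The RNA came from HEK293T/17, a human embryonic kidney line, and was selected for molecules longer than 200 nt and then fragmented before treatment. Both libraries were copied in the presence of magnesium, and they are 2 of the 6 libraries of the series, the others having been copied by SuperScript III. Each group is 1 library, so no difference given here has a replicate check and no p-value is given. A position of 18S or 28S rRNA was compared where each library had 100 or more crossing reads. This kept 6935 of 6939 positions, and the 4 left out were the first and last position of each rRNA.

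Pseudouridine (Ψ) is an isomer of uridine joined to its ribose through carbon instead of nitrogen, and ribosomal RNA is among the RNAs richest in it. CMC, a carbodiimide, attaches a bulky adduct to the Watson-Crick face of uridine and guanosine and to pseudouridine, and an alkaline step is usually used to clear it from all but pseudouridine. No such step is described in the labels. A reverse transcriptase that meets the adduct may stop, may pass it with a wrong base, or may pass it correctly. The enzyme travels along the RNA from 3′ to 5′, so the base 3′ of a site is copied before it and the base 5′ after it.

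2 values were computed at each position. For the mutation share, reads with a base other than the reference were divided by all reads crossing the position. For the stop share, reads stopping there were divided by the sum of stopping and crossing reads. Both are in percent. A stop was taken as booked at the template base that was not copied. On that reading, a stop 1 nt 5′ of a site belongs to a cDNA whose last copied base lay opposite the site. That last base is not among the crossing reads of the site. The counts do not settle this, since a last copied base 1 nt further 3′ would give the same counts. Differences are CMC minus mock in percentage points (points), with 95% Newcombe intervals where printed. A position is said to have risen or fallen only where the difference reached 5 points and its interval left out 0. This compares 2 libraries, not 2 treatments. The intervals cover counting error only, since reads amplified without molecular identifiers are not independent molecules.

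The CMC library held 21206954 ended reads and the mock library 47002169, with median crossing counts of 66816 and 231429 reads per position. A list of 100 pseudouridines was used, 40 in 18S and 60 in 28S, and 12 positions with other modifications. This list was written from general knowledge with earlier results of these data known, so counts over it describe and do not test. An unlisted U is one outside the list and may still be a pseudouridine. All 100 lay on a U of the deposited sequences. The fewest crossing reads at a listed pseudouridine were 9402, and the 95% Wilson half-widths of the shares reached 0.663 points (mutation) and 0.729 points (stop) at these sites, both in the CMC library. Of the 6935 positions, 945 had fewer than 10000 crossing reads in one library or the other, and 944 of these lay in 28S.

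The sites on which the results turn are shown first, each as the deposited reference sequence 5′ to 3′, with 10 nt on each side and the position itself in capitals. T stands for U, as in the deposited tables. The first 5 are among the 7 listed pseudouridines with the largest mutation rises, and the base after the capital is g in 4 of them and c in the last.
Ψ1692 of 18S: ccctgcccttTgtacacaccg
Ψ4471 of 28S: cctatcattgTgaagcagaat
Ψ1347 of 18S: cgttcttagtTggtggagcga
Ψ1744 of 28S: gtaaagcgaaTgattagaggt
Ψ3715 of 28S: gctctgaatgTcaaagtgaag
The next 4 are the listed pseudouridines with the largest rise in stops, and the base after the capital is a or t.
Ψ1445 of 18S: cccaacttctTagagggacaa
Ψ4361 of 28S: ttttgggtttTaagcaggagg
Ψ3844 of 28S: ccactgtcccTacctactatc
Ψ3639 of 28S: aatccgactgTttaattaaaa
The next 4 are unlisted uridines, each directly beside a listed pseudouridine, whose mismatches after CMC were nearly all A or nearly all G.
U965 of 18S: agaggtgaaaTtcttggaccg
U1642 of 18S: gaacgaggaaTtcccagtaag
U1239 of 18S: gcctgcggctTaatttgactc
U4354 of 28S: tctgacctttTgggttttaag
The last 4 are the positions whose stop share fell most.
A15 of 28S: acctcagatcAgacgtggcga
G2427 of 28S: aacagcagttGaacatgggtc
G4527 of 28S: aacgtgagctGggtttagacc
G1040 of 18S: aacgaaagtcGgaggttcgaa

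The first question was how CMC changed the reading of each of the 4 bases. Uridine stood apart from the other 3 in both measures. Over all positions, 73 rose in mutation (1.05%) and 7 fell (0.101%), while 698 rose in stop share (10.1%) and 254 fell (3.66%). Among the 100 listed pseudouridines the mutation share was higher with CMC at all 100, with a median of 4.74% against 0.446% in the mock library, and 43 rose. Their differences ran from 0.185 to 33.9 points, with a median of 4.22. The stop share was also higher at all 100. Its median was 18.5% against 2.17%, 84 sites rose, and the differences ran from 0.406 to 56.2 points.

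Uridines outside the list moved in the same direction by less. At the 1052 unlisted U the median mutation share was 1.56% with CMC and 0.617% without, it was higher at 986, and 24 rose. The median stop share was 4.87% against 1.80%, with 349 that rose (33.2%) and 1 that fell. Of these uridines, 93.7% were higher with CMC in mutation and 93.8% in stop, against 56.4% and 55.8% over all positions.

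Guanosine, the other base that CMC modifies, had slightly more mutation with CMC and nearly the same stops. At 2374 unlisted G the median mutation share was 0.877% with CMC and 0.609% without, a median difference of 0.183 points, and it was higher at 72.3% of them. Only 3 rose and 2 fell. The median stop share was 2.80% against 2.76%, with a median difference of -0.0405 points, 119 that rose and 140 that fell. Adenosine and cytidine had lower mutation shares with CMC at most positions. The share was higher at 30.3% of 1209 A, with medians of 0.587% and 0.769%, and at 33.9% of 2188 C, with medians of 0.530% and 0.676%. Their median stop differences were -0.0218 and -0.0357 points. The order of median differences was thus listed pseudouridine, unlisted U and then the other 3 bases.

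**Figure D1:**
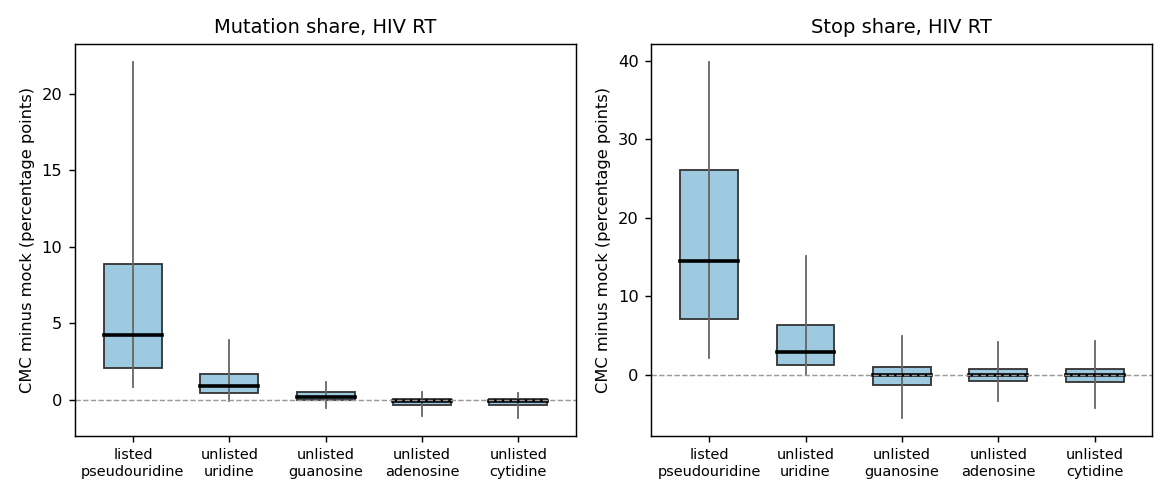
Differences between the CMC and mock libraries copied by HIV RT, in percentage points, for mutation share (left) and stop share (right) by class of position. The box spans the quartiles, the line is the median and the whiskers run from the 5th to the 95th percentile. Listed pseudouridines and, by less, unlisted uridines lie above 0, while the medians of G, A and C lie close to it.

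The same shift appeared in the makeup of all stops and mismatches. U was 16.6% of the positions, 13.4% of the stops in the mock library and 33.8% of the stops in the CMC library. G went from 42.0% to 30.3% of stops, C from 24.8% to 19.2% and A from 19.9% to 16.7%. The 100 listed pseudouridines, 1.44% of the positions, held 1.48% of stops without CMC and 6.31% with it. Of all mismatches, U held 17.8% without CMC and 32.3% with it, and the listed pseudouridines 1.12% and 5.66%. These shares add to 100% within a library, so a rise in U lowers the others.

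Substitutions differed by base. At unlisted U the median share of crossing reads with C was 0.870% after CMC and 0.251% in the mock library, and it was higher at 95.7% of positions. At unlisted G the share read as C was 0.256% against 0.138%, higher at 79.4%, and the share read as T was 0.360% against 0.259%, higher at 65.7%. At A the share read as T fell short of the mock value at most positions, with medians of 0.260% and 0.406% and a higher value at 22.5%. At C the share read as T had medians of 0.269% and 0.364%.

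The listed pseudouridines differed in how they were read. Of the 100, 35 rose in both measures, 49 in stop alone, 8 in mutation alone and 8 in neither. The largest mutation rise was at Ψ1692 of 18S, with a mutation share of 34.6% after CMC and 0.711% without, a difference of 33.9 points (33.4 to 34.3). Its stop share was 9.82% against 2.96%. At Ψ4471 of 28S the mutation share was 30.4% against 0.624% and the stop share 18.6% against 5.15%. Ψ1347 of 18S had 29.1% against 0.835%, and Ψ1744 of 28S had 29.1% against 1.01%. Both were among the 8 that rose in mutation alone, since their stop shares differed by 4.16 and 1.88 points. The other 6 were Ψ93 of 18S and Ψ1782, Ψ3734, Ψ3822, Ψ3884 and Ψ4521 of 28S, where mutation rose by 8.78 to 22.2 points.

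The largest stop rises were at other sites than the largest mutation rises. Ψ1445 of 18S had a stop share of 60.9% after CMC and 4.71% in the mock library, a difference of 56.2 points, while its mutation share was 4.81% against 0.929%. Ψ4361 of 28S had stop shares of 55.6% and 3.36% and mutation shares of 4.04% and 0.602%. Ψ3844 of 28S had stop shares of 49.2% and 2.42%. Ψ3639, 2 nt from the listed Ψ3637, had 48.0% and 3.25% and rose in mutation too, by 5.83 points. The 8 sites that rose in neither measure were Ψ105 and Ψ1232 of 18S and Ψ3764, Ψ4403, Ψ4420, Ψ4442, Ψ4493 and Ψ4673 of 28S. Their mutation differences were 1.37 to 4.84 points and their stop differences 1.962 to 4.78 points, all above 0.

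Grouped by their 3′ base, the sites divided between the measures. Of 25 sites before an A, 25 rose in stop and 3 in mutation, with median differences of 30.4 and 2.21 points. Of 24 sites before a G, 14 rose in stop and 17 in mutation, with medians of 6.82 and 10.8 points. Before a U (27 sites) 26 rose in stop and 16 in mutation, and before a C (24 sites) 19 and 7. Of the 8 sites that rose in mutation alone, 7 stood before a G. The 5′ base also separated the sites in mutation, with 16 of 22 risen after a G and 4 of 20 after a C, against 10 of 30 after an A and 13 of 28 after a U. Among unlisted U, 119 of 163 before an A rose in stop (73.0%) and 115 of 224 before a U (51.3%), against 49 of 357 before a C and 66 of 308 before a G. With stops booked as taken here, a stop leaves a cDNA that ends opposite the 3′ base. The end of the cDNA then differs with this grouping, and its part in the result was not tested.

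**Figure D2:**
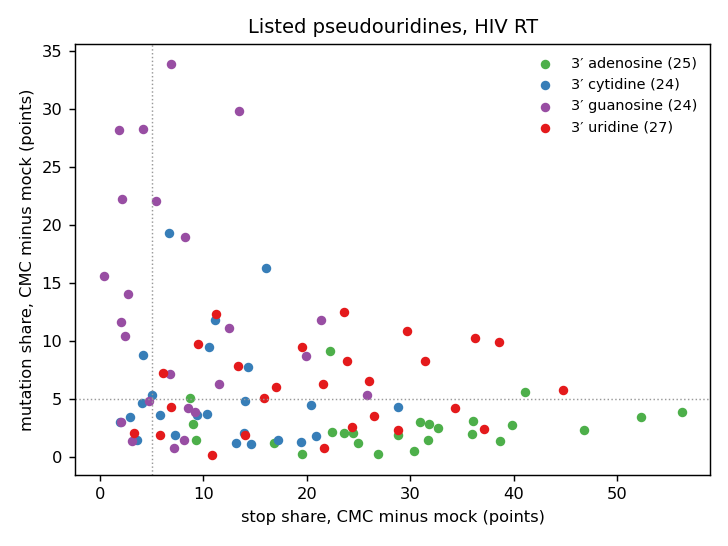
Stop difference (horizontal) against mutation difference (vertical), CMC minus mock in percentage points with HIV RT, for the 100 listed pseudouridines, coloured by the base 3′ of the site. Dotted lines mark 5 points on each axis. Sites before G spread along the mutation axis and sites before A along the stop axis.

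The spectrum of wrong bases was then taken site by site. It was computed where both libraries had at least 200 mismatched reads, which held for all 43 pseudouridines with a risen mutation share. Over these 43 the mean share of mismatches that were C was 80.2% after CMC (median 86.8%, range 31.2 to 98.6%) and 48.8% in the mock library. A made up 13.2% against 31.1% and G 6.61% against 20.1%. C led at 39 of 43 sites after CMC, and at 32 in the mock library, where A led at the other 11. The 54 pseudouridines that had a spectrum but had not risen had a mean C share of 59.1% against 42.1%. Unlisted U with a spectrum (900) had 58.7% against 43.5%.

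Sites of the same class ranged from nearly pure U-to-C reading to a majority of A. The C share after CMC was 98.6% at Ψ3715, 97.5% at Ψ4471, 97.4% at Ψ1677 of 28S and 97.3% at Ψ1692. The mock library had 65.4%, 62.4%, 58.3% and 60.7% at these sites. The 4 sites not led by C were Ψ572 of 18S, with 67.6% A, Ψ1781 of 28S with 59.8% A, Ψ4628 of 28S with 53.9% A and Ψ3637 of 28S with 45.8% G and 42.6% C. A already led in the mock library at Ψ572 (58.4%) and Ψ1781 (42.7%), while at Ψ4628 C led there with 45.3%. By the 5′ base, the median G share was 7.33% at 16 sites after a G and 2.30% at 13 sites after a U. By the 3′ base it was 8.04% at 16 sites before a U and 2.56% at 17 sites before a G.

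**Figure D3:**
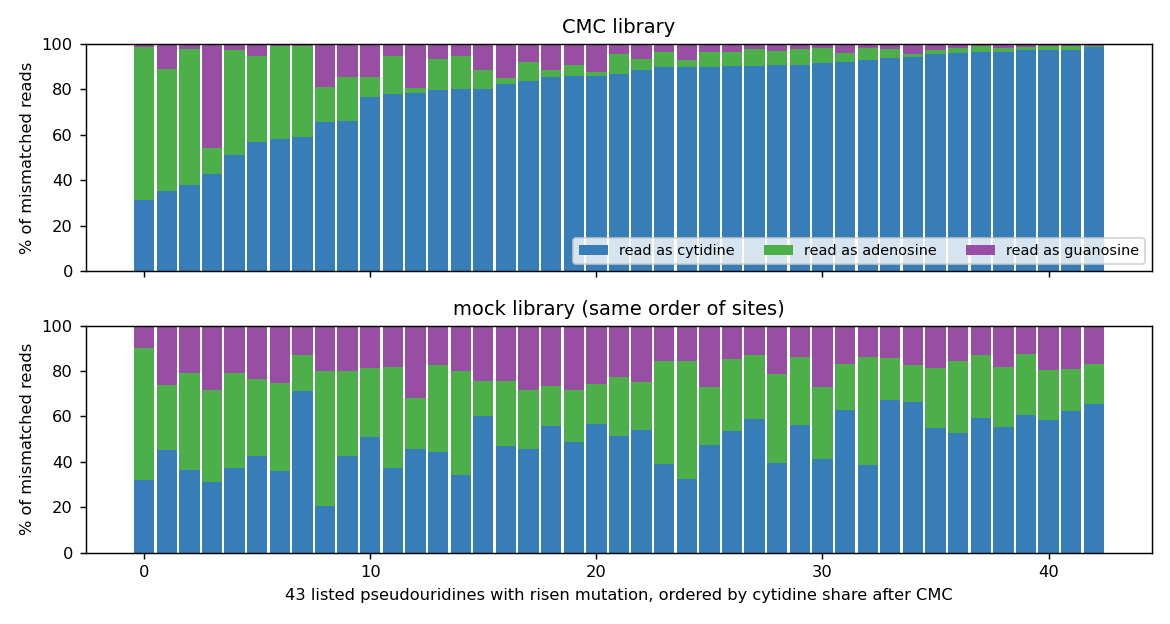
Makeup of mismatched reads at the 43 listed pseudouridines whose mutation share rose, in percent, with the CMC library above and the mock library below in the same order of sites. Each bar is 1 site, ordered by the share read as cytidine after CMC, which runs from 31.2% to 98.6%.

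A small group of unlisted uridines had a spectrum unlike that of the risen pseudouridines. Of the 24 unlisted U whose mutation share rose, 20 had enough mismatched reads for a spectrum, and C led at 13 of them and A or G at 7. These 7 were looked at one by one after their values were seen. U1642 of 18S had a mutation share of 18.1% after CMC and 1.14% without, and 95.3% of its mismatches were A (95% Wilson interval 94.9 to 95.6%), against 51.7% in the mock library. Its 3′ neighbour is Ψ1643, where the mutation share was 10.2% against 0.772% and C made up 90.9% of mismatches. U965 of 18S, directly 5′ of Ψ966, had a mutation share of 9.44% against 0.575%, with 94.5% A. U1371 of 18S, 4 nt from a listed site, had 10.7% against 1.72%, with 75.7% A.

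These 3 share their nearest neighbours, since each reads aaTtc. That context holds 7 unlisted U in both rRNAs, of which these 3 rose in mutation. The context was taken from these 3, which had been picked for their leading A, so their own A shares are no support for it. At each of the other 4 the share of A among mismatches was higher with CMC, at 42.4 to 85.7% against 21.9 to 38.6% in the mock library. These 4, U160 and U630 of 18S and U3729 and U4481 of 28S, had mutation differences of 1.39 to 4.63 points. U3729, with 85.7% A, lies directly 5′ of the listed Ψ3730. U965 and U1642 also lie directly beside a listed site, and the part of that nearness was not tested.

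The remaining 4 uridines led by A or G stood in other contexts. U1239 of 18S, directly 3′ of Ψ1238 and followed by an A, had a mutation share of 7.15% against 0.359%, with 93.1% A. U4354 of 28S, directly 3′ of Ψ4353 and followed by a G, had 9.64% against 0.505%, with 91.5% G. U2545 of 28S had 74.4% A, and A led there in the mock library with 59.8%. U597 of 28S had 98.5% G against 98.9% in the mock library, at mutation shares of 39.3% and 27.8% and crossing counts of 4312 and 3034. In all, the leading wrong base equalled an adjacent base at 5 of the 7, the aaTtc uridines among them, against 2 of the 13 led by C. Among risen listed pseudouridines it did so at 2 of 4 led by A or G and at 9 of 39 led by C. The 7 had been picked for a leading A or G, and the match was not compared with its share over all uridines. Of the 7, 4 lay directly beside a listed site, against 2 of the 13 and 46 of all 1052 unlisted U.

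The remaining risen uridines included values as high as those of listed sites. U1177 of 18S had a mutation share of 23.3% after CMC and 0.514% without, with 85.1% of mismatches read as C, and a stop share of 9.51% against 0.390%. U1861 of 28S lies between the listed Ψ1860 and Ψ1862. It had a mutation share of 10.1% against 0.634% and a stop share of 42.6% against 2.09%, the largest stop rise of any unlisted uridine.

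Beyond U, 6 positions rose in mutation, and all lay in 28S. They were G2195, A3343, G605, G1024, A3506 and C4806. The largest was G2195, at 22.2% against 10.8%, with 892 and 1562 crossing reads. A3506 had 39.5% against 31.5%. None of the 6 had more than 10100 crossing reads in either library, and their mock mutation shares were 2.07 to 31.5%, against a median of 0.656% over all positions. Their low depth moves with these rises, and its part was not tested.

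The neighbours of the pseudouridines were examined at the 56 listed sites with no other listed site within 5 nt. Stops extended to the base 5′ of the site. The median stop difference was 14.1 points at the site, 8.25 points 1 nt 5′ of it and 2.60 points 2 nt 5′, against 2.11 points 1 nt 3′. At 1 nt 5′ the median stop share was 9.33% with CMC and 1.34% without, and 41 of 56 positions rose. Restricting this to the 37 neighbours that are not U gave 6.51 points, with 25 risen. At 1 nt 3′ the 43 that are not U gave 1.36 points, with 3 risen. From 3 to 6 nt on the 5′ side the medians were 0.230 to 0.635 points.

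Mutation was raised mainly at the site itself. Its median difference was 3.89 points there, 0.405 points 1 nt 5′ and 0.238 points 1 nt 3′, and 24, 3 and 1 of the 56 positions rose. In terms of single sites, the stop difference 1 nt 5′ exceeded that at the site in 18 of 56, and the one 1 nt 3′ never did. The 5′ neighbour exceeded the 3′ neighbour in 46. Across the 56 sites Spearman's rho between the stop differences at the site and 1 nt 5′ was 0.389. That value describes sites read in the same 2 libraries, which are not independent replicates.

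**Figure D4:**
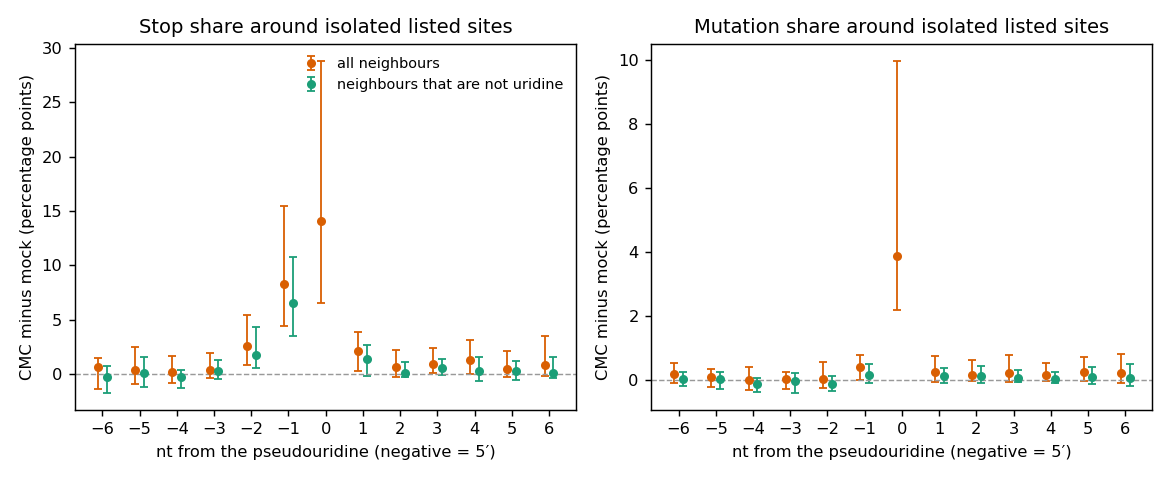
Median difference between the CMC and mock libraries copied by HIV RT, in percentage points, at each distance from 56 isolated listed pseudouridines, for stop share (left) and mutation share (right). Bars span the quartiles over sites, and the second series leaves out neighbours that are uridine. Stops are raised at the site and 1 nt 5′ of it, and mutation at the site.

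Among these 56 isolated sites the largest 5′ neighbours were uridines. U4360, before Ψ4361 of 28S, had a stop share of 40.7% against 5.53%, a difference of 35.2 points (34.8 to 35.6). U571, before Ψ572 of 18S, had 29.2% against 2.64%. U3694, before Ψ3695 of 28S, had 26.2% against 1.84%, more than the 10.7% against 1.23% at Ψ3695 itself. On the 3′ side of the isolated sites the largest were U1368 after Ψ1367 of 18S, with 36.0% against 8.88%, and U573 after Ψ572, with 16.9% against 1.84%.

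Nearness to a listed site also separated the unlisted uridines. Of 46 directly beside a listed site, 36 rose in stop (78.3%), with a median difference of 9.25 points. Of 120 that lay 2 to 5 nt away, 51 rose (42.5%), with 3.62 points. Of 886 farther away, 262 rose (29.6%), with 2.63 points. The median mutation differences of the same groups were 1.20, 0.768 and 0.877 points, with 6, 3 and 15 risen. Each of the 46 has a U as a neighbour, since every listed pseudouridine lies on a U. Over all unlisted U, 115 of 224 before a U (51.3%) and 90 of 224 after a U (40.2%) rose in stop. Nearness was not separated from the neighbouring base, and the part of each was not tested.

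Stops that rose at other bases mostly lay next to a U. Of the 263 risen positions that are G, A or C, 215 had a U as the 3′ neighbour (81.7%), against 15.6% of all 5781 such positions, and 47 lay directly 5′ of a listed pseudouridine. The 72 positions 5′ of a listed pseudouridine had median stop shares of 8.04% with CMC and 1.51% without, and 65.3% rose. The 828 positions 5′ of an unlisted U had 4.42% and 2.14%, and 20.2% rose. The 4879 positions not followed by U had 2.12% and 2.37%, and 0.984% rose while 5.00% fell. Of the 48 that rose without a U as the 3′ neighbour, 19 had a U 2 nt 3′ and 16 had fewer than 10000 crossing reads.

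Single positions of this kind reached the size of the listed sites. A4298 of 28S, directly 5′ of Ψ4299, had a stop share of 34.8% against 2.02%, while its mutation shares were 0.389% and 0.257%. G4578, directly 5′ of Ψ4579, had 32.5% against 3.32%. C1247 of 18S, directly 5′ of the hypermodified uridine at 1248, had 36.3% against 6.06%. C2211 of 28S had 44.6% against 10.7%, with 1768 and 5348 crossing reads.

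The positions that fell were of another kind. Of the 254 that fell in stop share, 140 were G, 84 C, 29 A and 1 U, so G made up 55.1% of the falls and 34.2% of the positions. Their median stop share was 12.4% in the mock library and 4.54% with CMC. A fall of 5 points needs a mock share of at least that size, and the lowest mock share among them was 5.72%, against a median of 2.21% over all positions. Positions picked for a high mock value also tend to be lower in any second library, so no count of falls among high mock values is read as a test.

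With that limit, positions with high mock stops were mostly lower with CMC, except at the few uridines among them. Of 60 positions with a mock stop share of at least 20%, none of them a U, 49 fell and none rose by 5 points. Of 318 with at least 10%, 180 fell and 21 rose. Among the 183 G of that group 105 fell and 8 rose, with medians of 14.02% in the mock library and 8.41% with CMC. Among its 10 U, 1 fell and 7 rose, with medians of 11.3% and 30.3%. Only 9 of the 254 falls (3.54%) stood 5′ of a U, against 16.6% of all positions.

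The 5 largest falls were at well covered positions. A15 of 28S had a stop share of 39.5% in the mock library and 7.64% with CMC, a difference of -31.8 points (-32.2 to -31.5). G2427 of 28S had 37.3% and 8.20%, on 473954 and 165060 crossing reads. G4527 of 28S had 32.1% and 3.34%, and G1040 of 18S had 34.0% and 5.54%. C1453 of 18S had 26.8% and 4.11%. Falls were also frequent at the 5′ ends, with 16 among the 98 compared positions in the first 50 of each rRNA (16.3%). Low coverage was somewhat more common among them, since 54 of the 254 (21.3%) had fewer than 10000 crossing reads against 13.6% of all positions.

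**Figure D5:**
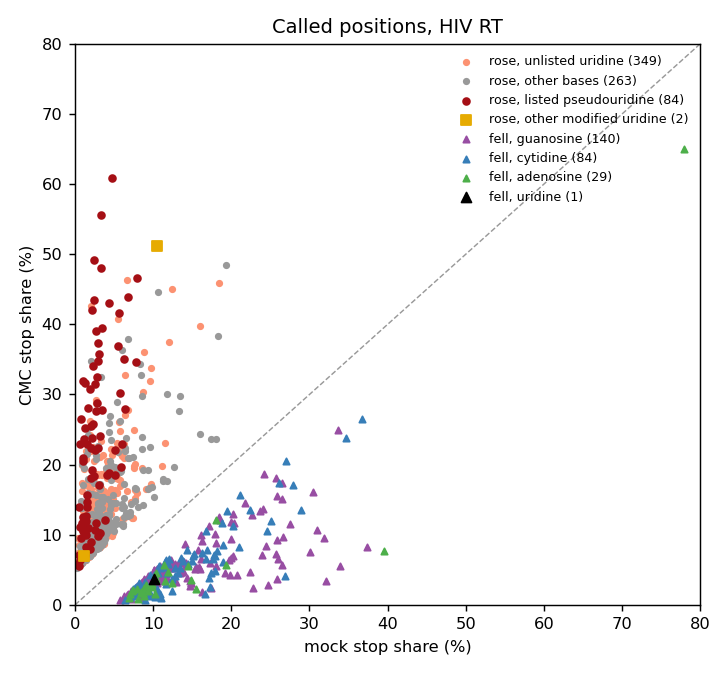
Mock stop share (horizontal) against CMC stop share (vertical), in percent, for the 698 positions that rose and the 254 that fell with HIV RT, by base and class. Each point is 1 position and the dashed line marks equal shares. Risen positions lie mostly at low mock shares, and fallen positions, 140 of them G, at mock shares of 5.72% and above.

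The positions that fell were then read in the SuperScript III libraries. They had been picked through a high mock stop share with HIV RT. Their lower mock stops with SuperScript III are therefore not read as a difference between enzymes. At 251 of the 254 positions that could be measured with SuperScript III and manganese, the median stop share was 2.79% in its mock library and 1.94% in its CMC library, and 32 fell there too, which is 12.7% of these falls and 23.4% of the 137 falls of that condition. Over all positions 1.98% fell there. With magnesium 242 were measured, the medians were 2.21% and 1.55%, and 23 fell, which is 9.50% of these and 18.1% of the 127 in that condition, where 1.84% of all positions fell. The tables of both enzymes are named differently, and a difference in their processing cannot be told apart from the enzyme.

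The 7 falls in mutation included both listed uridines modified on their base-pairing face. Position 1248 of 18S, a hypermodified pseudouridine, had a mutation share of 81.1% in the mock library and 54.5% with CMC, a difference of -26.7 points (-27.2 to -26.2). Its stop share rose from 10.5% to 51.1%. Position 4530 of 28S, a uridine methylated on its base, had mutation shares of 40.5% and 29.4% and stop shares of 1.10% and 6.91%. The other 5 were C3 of each rRNA and C3337, G615 and G829 of 28S. C3 of 18S had 9.76% and 4.07%, and C3337 had 24.7% and 12.2% on 2236 and 1700 crossing reads. As with stops, the 5-point rule requires a mock share of at least that size.

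At the other listed modified bases the only called changes were falls in stop share, at 2 positions. At position 1322 of 28S, a methylated adenosine that blocks copying, the stop share was 78.0% without CMC and 65.0% with it, while the mutation share was 53.1% and 53.2%. Position 4220 of 28S, an N-methylated adenosine, fell from 9.78% to 2.48% in stop share. At position 1850 of 18S, a doubly methylated adenosine, the stop shares of 46.0% and 42.3% differed by less than 5 points. Its mutation shares were 1.98% without CMC and 0.924% with it. Position 3782 of 28S, a C, had stop shares of 8.20% and 3.23%, a difference of -4.97 points, just under the bar. The methylated guanosine at 1639 of 18S had 12.3% and 13.7%.

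Coverage differed between the libraries along the molecules, and its part in these results was not tested. The ratio of mock to CMC crossing reads had a median of 2.68 over positions, against a ratio of 2.22 for ended reads. In windows of 100 nt its median ran from 0.827 at 801 to 900 of 28S to 9.37 at 4401 to 4500 of 28S, a window with 9 listed pseudouridines. The next highest were 7.55 at 4501 to 4600 of 28S, with 5 listed sites, and 6.09 at 1301 to 1400 of 18S, with 2.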

How the data were processed

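Per the labels' protocols, fragmented RNA was CMC- or mock-treated, ligated at its 3′ end, copied, circularised, amplified and sequenced. The submitters' processing notes name Trimmomatic 0.32 and Bowtie 1.0. Settings, the reference's origin and the program used for counting were not given in the sources used here. Per the file headers, the authors deposited for each position the reference base, the counts of crossing reads in all and per base, the count of stops (entered as another unit in the unit check), and a mismatch rate and stop frequency as a fraction. Those fractions were not used, and shares were recomputed from the counts. In 12 of 12 tables the crossing count at the third position exceeded that at the second by the stops at the first. Reads stopping at the first position were thus first counted as crossing at the third. Whether their last copied base lay opposite the second or the third cannot be told from this, and the second was taken. Positions are those of the deposited rRNA, counted from 1, and no genome build applies.

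A share of crossing reads (at least 100 in both libraries) was compared by its difference, with Wilson and Newcombe 95% intervals. A change was called at 5 points with an interval off 0, a rule of size, since 1 library per group allows no test across samples. The deposited positions were read with pandas 2.3.3 and numpy 2.4.6. Positions named are those with the largest differences by class, base and measure, the sites with the most extreme spectrum, all other modifications and the largest neighbours of isolated sites. The site list was written from general knowledge, and members, list and rules were chosen with earlier results of these data known. Human rDNA copies are not separated. Alternatives were the minimum of reads, the size of change, the interval replaced by Fisher's exact test, a ratio of 2 with a difference of 1 point, each rRNA alone, pooled reads, isolation distance and mock subtraction.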

Additional observations from a re-analysis of the deposited data

Results flagged for a closer look

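At a few positions the stop difference called with HIV RT had the opposite sign to the one called with SuperScript III. These are 12 pairs of differences at 10 positions, against 698 stop rises and 254 stop falls called with HIV RT among 6935 positions. Of the HIV RT falls, 32 fell and 2 rose with manganese, and 23 fell and 2 rose with magnesium. None of the differences between enzymes was tested. With manganese, G156 of 18S differed by -8.23 points with HIV RT and 12.2 points with SuperScript III, and C3199 of 28S by -12.8 and 5.95 points. In the other direction, C3481 of 28S differed by 6.33 points with HIV RT and -7.82 with SuperScript III, and U4163 of 28S by 5.70 and -9.07 points. With magnesium, G156 of 18S differed by -8.23 and 7.64 points and G3019 of 28S by -5.86 and 6.13 points. The other 6 were positive with HIV RT, all in 28S. They were G624 (20.1 and -6.57 points), G638 (13.6 and -8.67), C3481 (6.33 and -8.48), C4038 (6.32 and -6.30), G4042 (8.72 and -10.01) and C4162 (9.996 and -5.59). Crossing reads with HIV RT were fewer than 10000 in a library at C3199, C3481, G624 and G3019, and their part in the difference was not tested.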

How the results depend on the processing

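The rule on the size of change moved the counts of calls. With 2 points in place of 5, 295 positions rose and 64 fell in mutation, and 1501 rose and 844 fell in stop. With 10 points these were 26, 3, 284 and 70, and with a ratio of at least 2 together with a difference of at least 1 point, which changes both, they were 708, 202, 1525 and 706. On 18S alone, with 1869 of the 6939 positions, they were 26, 2, 218 and 64. On 28S alone, with 5070 positions, 47 rose in mutation. Calls on 1 rRNA are a part of the main calls, so these counts are smaller by construction, although they are counted below as moved. Medians on 18S and 28S alone were 4.79 and 3.60 points for mutation at listed pseudouridines and 17.8 and 13.98 points for stop. Pooling reads over positions gave 7.04 and 20.4 points there, 1.31 and 4.62 at unlisted U, 0.399 for mutation at unlisted G and 0.0915 for stop at unlisted A (-0.0218 as a median, so the sign turned), and a C share of 86.0%. Subtracting mock mismatches gave a C share of 81.8%. Isolation by 2 nt (77 sites) gave 6.89 points for stop 1 nt 5′. Among alternatives added after seeing the data, a minimum of 10000 reads left 3 mutation falls, and leaving out positions with a mock mutation share of 5% or more left 0, as the 5-point rule fixes. Of 98 alternatives, 66 stayed within a tolerance and 32 moved beyond it. The tolerance was a fixed ratio for counts and an interval half-width for medians and shares. A change of sign was looked for only in the medians by base. None that exceeded its half-width changed sign. Fisher's exact test gave 73, 7, 698 and 254, the same as the interval. No paired analysis was possible because each group is 1 library, and for the same reason no replicate could be left out.

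With 1 library a group, treatment cannot be told apart from the handling of a library. Read depth limits the expansion segments of 28S most, where the widest Wilson half-width of a share over all compared positions reached 3.67 points for mutation and 6.29 points for stop in the CMC library.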
